A study of Mus musculus with 2 samples.

Results

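The cytoplasmic translation elongation factors of mouse cortex were followed through 7 genes: Eef1a1 and Eef1a2, Eef1b2, Eef1d and Eef1g, Eef2, and Eef2k. They were chosen by name, with the symbol and gene identifier taken from the row names of the deposited transcript tables, and make up 7 of 55536 annotated genes. The annotation gives them 54 transcripts. Total RNA was taken from left cerebral cortex. The donors were 2 female mice of the hybrid strain B6CASTF1/J, each 36 days old, with 1 library per mouse. This hybrid has a C57BL/6J and a CAST/EiJ parent, so each of these genes was present as 1 allele of each parental strain. Both libraries started from 300 ng of RNA, were depleted of ribosomal RNA, kept strand and carried ERCC spike-in RNAs. The mice form 1 group with no treatment, second tissue or second age, so each value below is a description with no p-value, and means ± SD are over the 2 mice.

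Each round of elongation begins when eEF1A, loaded with GTP, brings an aminoacyl-tRNA to the ribosome, and it ends when eEF2 uses GTP to move the ribosome to the next codon. The eEF1B complex recharges eEF1A with GTP. Its alpha and delta subunits (Eef1b2 and Eef1d) carry out the exchange, and its gamma subunit (Eef1g) holds the complex together. eEF2 kinase, the product of Eef2k, is switched on by calcium and calmodulin and inactivates eEF2 by phosphorylation, and in neurons it links synaptic activity to the rate of elongation.

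The libraries held 35188766 expected counts in replicate 2 and 29417186 in replicate 1. Levels are given as TPM, a share of all transcripts corrected for length. In the gene table nuclear protein-coding genes held 41.9% of TPM in replicate 2 and 46.9% in replicate 1, while the 2 rows of the short 7SL RNA held 30.1% and 24.3%. The larger 7SL share lowers the TPM of all other genes in replicate 2, so differences between the mice are also given from counts. Cortical markers were present: all 5 neuronal, all 4 astrocyte and all 3 oligodendrocyte markers passed 1 TPM in both mice. Reads of both parental alleles were assigned to the C57BL/6J reference, and any loss of CAST/EiJ reads was not tested.

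All 7 genes exceeded 1 TPM in both mice. Together they summed to 2237 TPM in replicate 2 and 2292 TPM in replicate 1, a mean of 2265 ± 38.4 TPM, which was 0.535% and 0.489% of the TPM of nuclear protein-coding genes. The order of the levels was Eef1a1, Eef1a2, Eef2, Eef1b2, Eef1g, Eef1d and Eef2k, from highest to lowest. It was the same in both mice and in both ways of assigning reads, described next. For each of the 6 adjacent pairs in this order, the gap between the means was larger than the sum of the SDs.

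The levels come from 2 kinds of deposited table: one derived from alignments to the transcriptome (called alignment-based here, the main source of every value) and one made directly from the reads (read-based). The read-based TPM was higher for all 7 genes, from 1.36 times the alignment-based TPM for Eef2 up to 2.19 times for Eef1b2. Over 12754 expressed nuclear protein-coding genes the median of this factor was 1.57, with quartiles of 1.45 and 1.77. Eef1b2, Eef1a1 (1.83) and Eef1g (1.83) lay above the upper quartile and Eef2 below the lower one, while Eef1d (1.70), Eef1a2 (1.55) and Eef2k (1.52) lay between them.

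**Figure D1:**
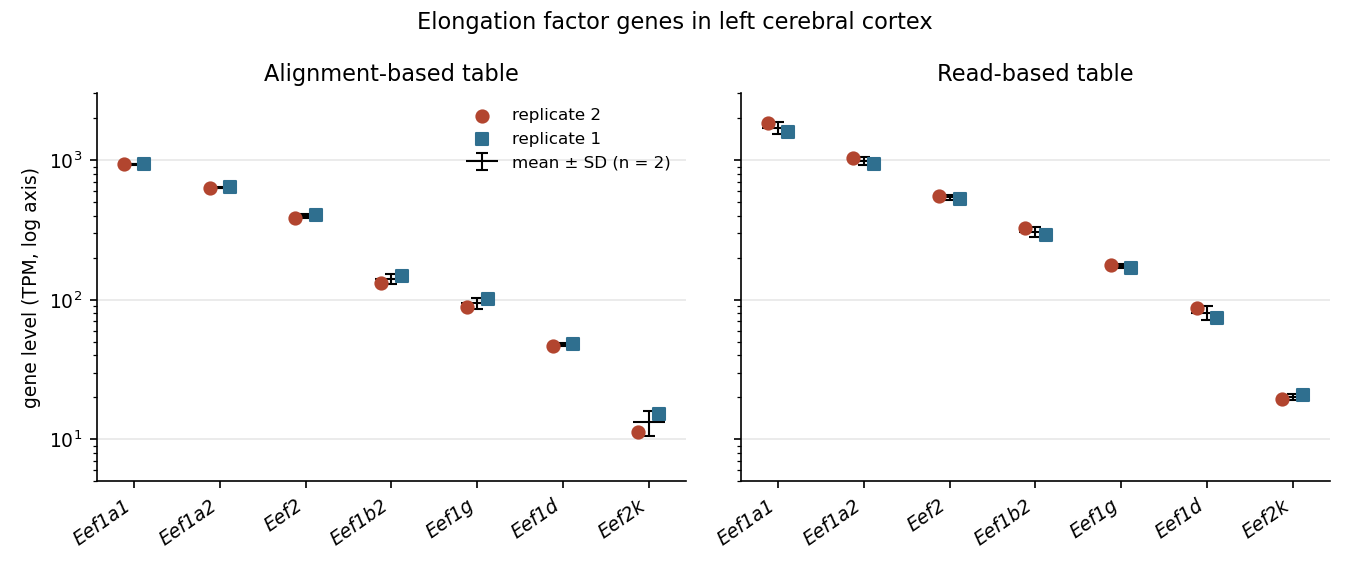
Gene level of the 7 elongation factor genes in TPM, on log axes, for the alignment-based gene table (left) and the read-based transcript table summed by gene (right). Circles are replicate 2, squares replicate 1, and the bars give the mean ± SD (n = 2). The order from Eef1a1 to Eef2k is the same in both panels.

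Eef1a1, which supplies eEF1A in most tissues, stood at 941 TPM in replicate 2 and 931 TPM in replicate 1 (936 ± 7.06 TPM). It ranked 13 of 22015 nuclear protein-coding genes by mean TPM. Its nearest neighbours were Cpe, encoding the prohormone-processing enzyme carboxypeptidase E, at 956 ± 41.6 TPM, and Glul, encoding the glutamine synthetase of astrocytes, at 889 ± 81.0 TPM. The order of Eef1a1 and these neighbours differed between the mice and was not resolved. Eef1a1 lies on the minus strand of chromosome 9 of build mm10, from 78478449 to 78489151 (ENSMUSG00000037742.14), and rested on 36506 and 26782 expected counts in replicates 2 and 1.

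Eef1a2 encodes the second form of eEF1A, which takes over from the first after birth in neurons and in skeletal and heart muscle. It reached 630 TPM in replicate 2 and 639 TPM in replicate 1 (635 ± 6.78 TPM) and ranked 39. It stood between Cfl1, encoding the actin-severing protein cofilin, at 640 ± 6.24 TPM, and Rtn1, encoding a reticulon of the endoplasmic reticulum, at 631 ± 11.0 TPM. This order held in both mice, but the gaps were smaller than the SDs. Eef1a2 lies on the minus strand of chromosome 2, from 181147653 to 181157014 (ENSMUSG00000016349.10), and rested on 31619 and 23734 expected counts in replicates 2 and 1. The muscle genes Ckm and Myh4 were at or near 0 (0.14 and 0 TPM for Ckm, 0.14 and 0.15 TPM for Myh4, in replicates 2 and 1), and Acta1, the skeletal actin gene, stood at 5.43 and 5.24 TPM.

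The first 120 coding bases of both eEF1A genes are given here because the 2 genes encode nearly the same protein and must be told apart by such differences. They are reference sequences of the leading transcripts (GENCODE M21, build mm10, read 5′ to 3′ from the start codon), with the 18 bases that differ in capitals.
Eef1a1 (Eef1a1-201, chromosome 9): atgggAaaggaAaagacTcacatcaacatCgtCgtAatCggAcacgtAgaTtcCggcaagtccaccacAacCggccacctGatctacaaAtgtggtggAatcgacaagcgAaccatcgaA
Eef1a2 (Eef1a2-201, chromosome 2): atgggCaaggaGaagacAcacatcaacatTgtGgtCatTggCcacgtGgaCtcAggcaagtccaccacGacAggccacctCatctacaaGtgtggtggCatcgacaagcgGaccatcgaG
Over the whole coding sequence, 1386 bases in Eef1a1 and 1389 in Eef1a2, 79.9% of aligned positions were identical. The longest identical run was 23 bases, and no window of 100 bases was shared. An error-free read of that length from 1 of these coding sequences would thus not match the other.

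Eef1a1 does share sequence with its processed copies. Of the 1695 windows of 100 bases in Eef1a1-201, 452 (26.7%) also occur in another annotated gene, and 9 of those 10 genes are pseudogenes. None of the 1985 windows of Eef1a2-201 does. Among the copies, AC133509.1 was given 14.4 and 12.2 TPM in replicates 2 and 1, and Gm13456 8.86 and 9.11 TPM. The division of reads between Eef1a1 and these copies is an estimate, and the quantifier's own posterior SD for the Eef1a1 count was 14.5 and 12.1 reads.

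The ratio of Eef1a1 to Eef1a2 was 1.49 in replicate 2 and 1.46 in replicate 1 by TPM (1.48 ± 0.0269). It was nearly the same with the TPM of the copies that RefSeq names after Eef1a1 added to Eef1a1, at 1.52 and 1.48. These copies are AC133509.1 and Gm10307, which was listed at 0 TPM in both mice. With every window-sharing pseudogene added, among them Gm13456, the ratio was 1.54 and 1.50. FPKM gave the same ratio as TPM. By expected counts, with no correction for the longer Eef1a2 transcript, it was 1.15 and 1.13. The read-based table gave 1.78 and 1.70 by TPM and 1.01 and 0.991 by estimated counts. In every measure the mice lay close to each other. The full range over these measures was wider than the gap between the mice in any of them.

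**Figure D2:**
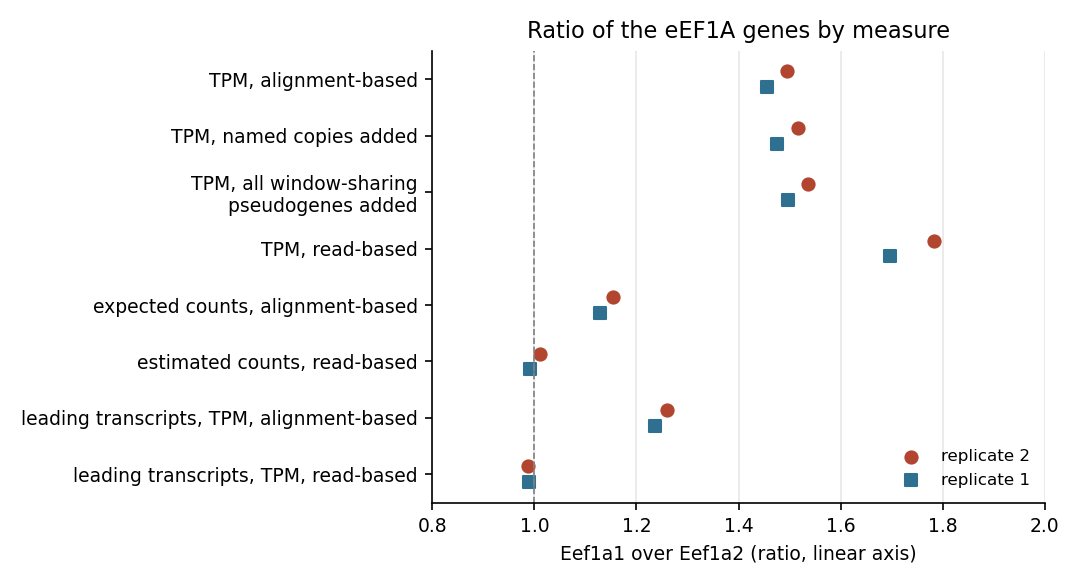
Ratio of Eef1a1 to Eef1a2 (linear axis, dashed line at 1) by measure, with circles for replicate 2 and squares for replicate 1. TPM ratios lie from 1.46 to 1.78, count ratios from 0.991 to 1.15, and the ratios of the leading transcripts alone from 0.987 to 1.26.

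The tables differed most for 1 short transcript of Eef1a1. Eef1a1-201, with 8 exons and 1386 coding bases, held 84.3% of the gene's TPM in replicate 2 and 84.9% in replicate 1 in the alignment-based table, but 55.4% and 58.3% in the read-based table. Eef1a1-208, a model of 745 bases whose coding sequence is annotated as incomplete at its end, held 6.98% and 7.31% in the first and 43.6% and 40.5% in the second. Of its 646 windows of 100 bases, 495 (76.6%) also occur in Eef1a1-201. With the leading transcripts alone, Eef1a1-201 over Eef1a2-201 was 1.26 and 1.24 in the alignment-based table and 0.987 and 0.989 in the read-based table. The estimated levels of these leading transcripts were thus close to equal in the read-based table, and Eef1a1-201 was the higher in the alignment-based table. Which division of the reads between Eef1a1-201 and Eef1a1-208 is nearer the truth was not tested. Eef1a2 has 1 annotated transcript and no such division.

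The eEF1B subunit genes were lower. Eef1b2 had 133 TPM in replicate 2 and 149 TPM in replicate 1 (141 ± 11.4 TPM, rank 544). Eef1g had 88.7 and 101 TPM (94.9 ± 8.86 TPM, rank 938), and Eef1d 46.7 and 48.3 TPM (47.5 ± 1.14 TPM, rank 2222). Both eEF1A genes together had 5.86 times the TPM of the 3 subunit genes in replicate 2 and 5.26 times in replicate 1, or 4.84 and 4.74 times in the read-based table. Eef1b2 had 1.50 and 1.47 times the TPM of Eef1g and 2.84 and 3.08 times that of Eef1d, in replicates 2 and 1. The gene levels of the 2 exchange subunits were thus not equal. These levels include transcripts not annotated as protein-coding. Protein-coding transcripts held 65.7% and 64.4% of the Eef1b2 TPM (33.8% and 45.8% in the read-based table). For Eef1d they held 90.4% and 89.4% (95.8% and 93.8%).

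Eef1b2 lies on the plus strand of chromosome 1, from 63176825 to 63180486 (ENSMUSG00000025967.16), and rested on 2156 and 1769 expected counts in replicates 2 and 1. It overlaps Ndufs1, a subunit gene of respiratory complex I on the opposite strand, which held 3608 and 2971 counts. The libraries kept strand, but the strand setting of the counting is not given in the sources used here, so reads from the overlap cannot be told apart. The next lower gene, Abhd12, encoding a lysophosphatidylserine lipase, had 141 ± 5.81 TPM, and its gap to Eef1b2 was smaller than the SDs.

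Most of the Eef1b2 RNA was assigned to transcripts other than the one with the longest coding sequence. That one, Eef1b2-204 with 675 coding bases, held 4.70% of the gene's TPM in replicate 2 and 4.05% in replicate 1. Eef1b2-209, which is also annotated as protein-coding but has 552 coding bases, held 61.0% and 60.3%. The 5 transcripts annotated as targets of nonsense-mediated decay, the pathway that degrades messages with early stop codons, held 32.3% and 33.3%, most of it in Eef1b2-205 at 22.7% and 23.7%. In the read-based table Eef1b2-204 held 8.76% and 10.1%, Eef1b2-209 held 25.1% and 35.6%, and the decay targets held 55.7% and 44.9%. There the leading transcript also differed between the mice: Eef1b2-206, a decay target of 482 bases, led in replicate 2 and Eef1b2-209 in replicate 1. The share of Eef1b2-209 differed more between the mice in the read-based table than in the alignment-based one.

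Messages of the translation machinery often begin with a C followed by a run of pyrimidines, the 5′ terminal oligopyrimidine (TOP) tract through which mTOR controls their translation. The annotated starts of the leading transcripts of Eef1b2, Eef1a1 and Eef2 are given here because all 3 genes are known TOP genes. They are the first 20 bases, 5′ to 3′ (GENCODE M21, build mm10), with a first-base C and the pyrimidines after it in capitals.
Eef1b2 (Eef1b2-209, chromosome 1): CTTTTTTTCCCTCagcgctg
Eef1a1 (Eef1a1-201, chromosome 9): ttcccgagggtgggggagaa
Eef2 (Eef2-201, chromosome 10): gttgacgtcagcggtctctt
A start of C and at least 4 pyrimidines, read on the transcribed strand only, was found in the annotated leading transcript of 1 of the 7 genes, Eef1b2. It was found in 8 of 77 expressed ribosomal protein genes (10.4%) and in 306 of 12742 expressed nuclear protein-coding genes (2.40%). In the RefSeq annotation Eef1b2 starts 299 bases upstream of the Eef1b2-209 start, while Eef1a1 and Eef2 start at the bases shown. Annotated starts need not be the starts used in this cortex, so the other genes lack these letters in the annotated window and nothing more is known from it. Whether Eef1b2 messages begin with the tract shown was likewise not tested.

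Eef1g lies on the plus strand of chromosome 19, from 8967041 to 8978479 (ENSMUSG00000071644.10). It rested on 3803 and 3044 expected counts in replicates 2 and 1. It shares the most sequence with a copy: 872 of the 1765 windows of Eef1g-201 (49.4%) occur in another gene, 866 of them in the processed pseudogene Gm4366, which was given 3.62 and 3.12 TPM. Eef1g-201 held 93.2% of the gene's TPM in replicate 2 and 85.0% in replicate 1. In the read-based table it held 72.7% and 72.9%, and Eef1g-202, a non-coding transcript of 706 bases, held 24.5% and 22.1%. Of the windows of Eef1g-202, 80.7% also occur in Eef1g-201.

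Eef1d encodes the delta subunit in a short form that works in elongation and in a long form, known from brain and testis, whose added N-terminal region lets it act as a transcription factor in the heat-shock response. The gene lies on the minus strand of chromosome 15, from 75894205 to 75909556 (ENSMUSG00000055762.16), and rested on 1439 and 1179 expected counts in replicates 2 and 1. Its 3 transcripts with the longest coding sequences (1656 to 1980 bases) held 34.9% of the gene's TPM in replicate 2 and 38.8% in replicate 1 (36.9% ± 2.81). The read-based table gave 34.3% and 37.8%, so this share was close in both tables and both mice. Its 12 other coding transcripts (303 to 843 bases) held 55.5% and 50.5%. The split was drawn at 1500 coding bases after the lengths were seen, and no transcript lies between 843 and 1656.

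Eef1d-204, the long form, held most of that share, at 30.9% and 33.2% in replicates 2 and 1. Against the short transcript Eef1d-207 it has 3 further exons, 1217 bases in all, of which 1202 are coding, and the longest of these exons has 1130 bases. Of the 2053 windows of Eef1d-204, 643 (31.3%) also occur in Eef1d-207. Eef1d-207 held 26.6% and 15.6% in the alignment-based table and was listed at 0 in both mice in the read-based table, where Eef1d-217 led with 42.9% and 46.0% instead of 9.23% and 13.5%. The alignment-based shares rest on few counts. Eef1d-207 had 251 and 112 counts in replicates 2 and 1, with posterior SDs of 44.8 and 39.8. Eef1d-217 had 66 and 74 counts, with posterior SDs of 36.0 and 33.6. None of the 797 windows of Eef1d-207 is found in it alone, against 95 of the 605 windows of Eef1d-217. Eef1d-213 held 14.0% and 18.0% in the alignment-based table and 10.5% and 9.51% in the read-based table.

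**Figure D3:**
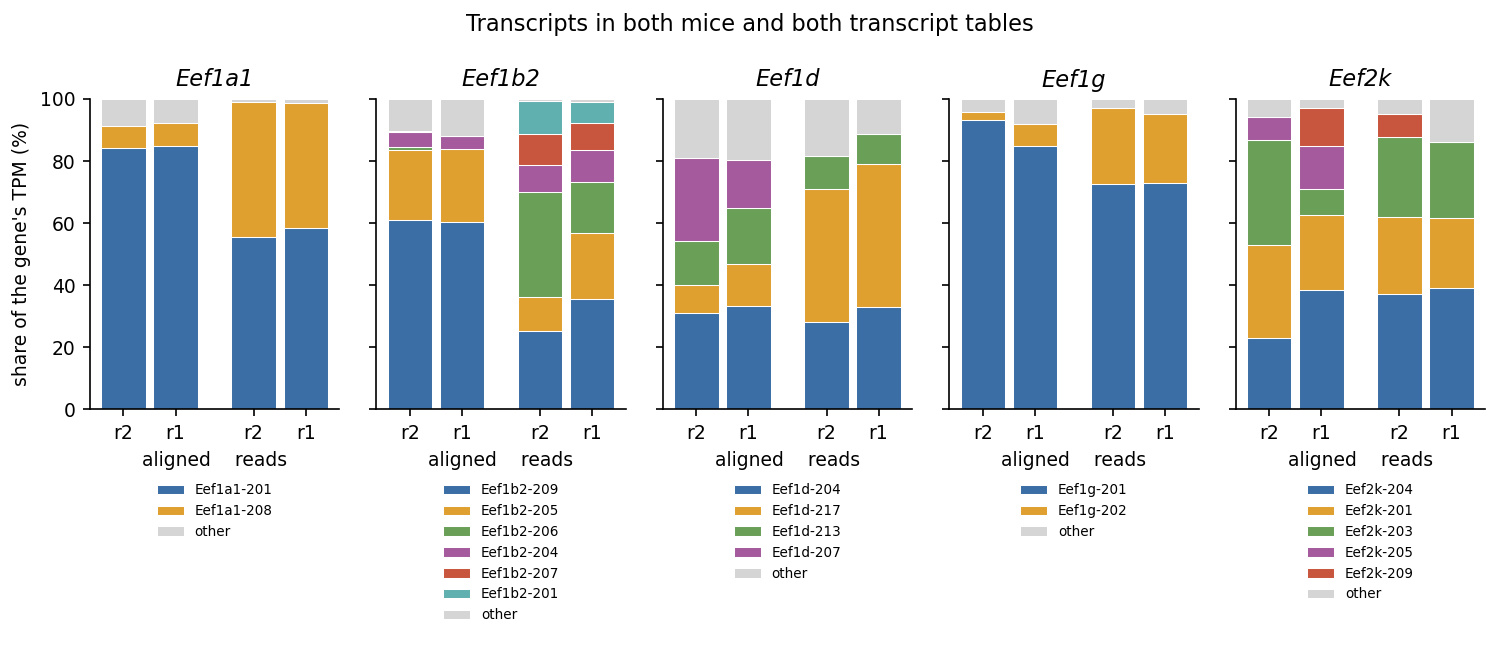
Share of the gene's TPM by transcript, as stacked bars that sum to 100%, for replicate 2 (r2) and replicate 1 (r1) in the alignment-based table (left pair in each panel) and the read-based table (right pair); transcripts under 10% in all 4 bars are grouped as other. Eef1a1-208 holds 6.98% and 7.31% in the left pair and 43.6% and 40.5% in the right pair, and the tables also divide Eef1b2, Eef1d and Eef1g differently. Eef2k-203 holds 33.7% in r2 and 8.43% in r1 in the left pair, against 25.8% and 24.5% in the right pair.

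Eef2, the single translocation factor, had 387 TPM in replicate 2 and 407 TPM in replicate 1 (397 ± 14.5 TPM, rank 83). Its neighbours were Ppp3ca, encoding the catalytic subunit of calcineurin, at 399 ± 41.1 TPM, and Thy1, encoding a neuronal surface protein, at 391 ± 4.81 TPM, and neither gap exceeded the sum of the SDs. Both eEF1A genes together were 4.06 times Eef2 in replicate 2 and 3.85 times in replicate 1, or 5.16 and 4.79 times in the read-based table. Eef2 lies on the plus strand of chromosome 10, from 81176631 to 81182498 (ENSMUSG00000034994.10), and rested on 28964 and 22421 expected counts.

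Both tables assigned nearly all of Eef2 to the same transcript. Eef2-201 held 98.8% of the gene's TPM in replicate 2 and 98.1% in replicate 1, and 99.0% and 98.2% in the read-based table. Of its 2990 windows, 2 occur in another gene, the processed pseudogene Gm13050. That copy was given 19.1 and 18.8 TPM in replicates 2 and 1, or 603 and 439 counts. The other windows of Eef2-201 do not occur in it as exact matches. How similar the copy is to Eef2 along its length was not measured.

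Eef2k was the lowest of the 7 genes. It had 11.3 TPM in replicate 2 and 15.2 TPM in replicate 1 (13.2 ± 2.75 TPM, rank 6936), on 1004 and 859 expected counts, so the count was higher in replicate 2 and the TPM was lower. The effective length that the authors' table gave the gene was 3512 bases in replicate 2 and 3024 in replicate 1. This length is a mean over the gene's transcripts and moves with their shares. In the read-based table Eef2k had 19.5 and 20.9 TPM. Eef2 was 34.2 times Eef2k in replicate 2 and 26.8 times in replicate 1, or 28.5 and 25.3 times in the read-based table. The gene lies on the plus strand of chromosome 7, from 120842831 to 120907450 (ENSMUSG00000035064.17).

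Eef2k was spread over 3 transcripts with the same 2172 coding bases that differ in their untranslated ends. In the alignment-based table Eef2k-203 held 33.7% in replicate 2 and 8.43% in replicate 1, Eef2k-204 held 22.8% and 38.3%, and Eef2k-201 held 30.2% and 24.2%. The leading transcript was Eef2k-203 in replicate 2 and Eef2k-204 in replicate 1. These shares rest on few counts: Eef2k-203 had 235 counts in replicate 2, with a posterior SD of 51.2, and 58.3 in replicate 1, with a posterior SD of 36.8. The read-based table gave Eef2k-204 the lead in both mice, at 37.1% and 39.2%, and the 3 transcripts together held 87.9% and 86.3% there. The retained-intron transcript Eef2k-205 held 7.43% and 13.9% in the alignment-based table on 5 and 9.28 counts, and was listed at 0 in the read-based table.

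Over the 7 genes, the leading transcript held at least 50% of the TPM in both mice in 5: Eef1a1, Eef1a2, Eef1b2, Eef1g and Eef2. In the read-based table this held for 4, without Eef1b2. Eef1a2 has 1 annotated transcript, so its share is 100% by annotation. How many of all expressed genes pass the same mark was not counted, so these counts say little about the 7 genes. Of the 54 transcripts, 9 were listed at 0 in both mice, and 15 are annotated with a coding sequence that is incomplete at its start or end.

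Differences between the mice were small for all 7 genes. By counts scaled with the trimmed mean of M-values (TMM, with a prior count of 2), the log2 ratio of replicate 2 over replicate 1 was 0.25 for Eef1a1, with a 95% exact (Clopper-Pearson) counting interval of 0.23 to 0.28, and 0.22 for Eef1a2 (0.20 to 0.25). It was 0.18 for Eef2 (0.15 to 0.20) and 0.13 for Eef1g (0.06 to 0.20). For Eef1d the log2 ratio was 0.09 (-0.02 to 0.21), for Eef1b2 0.09 (0.0015 to 0.18) and for Eef2k 0.03 (-0.10 to 0.17). The intervals cover counting error only, and they narrow as counts rise. No molecular identifiers are named for these libraries, so duplicate reads could not be told apart and the intervals may be too narrow. How many of all genes have an interval without 0 was not counted.

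None of the 7 genes was 2-fold apart between the mice, while 90 of 12615 genes were (0.713%), counting those whose mean count was 100 or more. A count of 0 among 7 genes is what such a share gives, so it says little about these genes. Their median log2 ratio was 0.13, against 0.04 over all 12615 genes, where the median absolute log2 ratio was 0.13 and 58.9% were higher in replicate 2. All 7 ratios were above 0 by TMM, but all 7 were below 0, from -0.43 to -0.21, when scaled by the spike-ins, which moved the median of all genes to -0.42. By spike-ins only 2.31% of the 12615 genes were higher in replicate 2, so the direction of the 7 genes is that of nearly all genes. The members' median by spike-ins was -0.34. The spike-ins held 0.461% of counts in replicate 2 and 0.349% in replicate 1. With library totals 6 of the 7 were higher in replicate 2 and Eef2k was at -0.03. By TPM 6 of the 7 were lower in replicate 2 (Eef1a1 was at 0.02), and after rescaling TPM over nuclear protein-coding genes 4 were higher. The share of all genes higher by library totals or by TPM was not counted. By TMM 4 of the 5 neuronal markers were higher in replicate 2, with a median log2 ratio of 0.10 and sums of 2970 and 3170 TPM in replicates 2 and 1. Of the 3 oligodendrocyte markers 1 was, with a median of -0.12 and sums of 1192 and 1586 TPM. Of the 4 astrocyte markers 3 were, with a median of 0.16 and sums of 819 and 1019 TPM. Among 3 microglial markers 1 was higher (median -0.001), and among 2 endothelial markers 2 were (median 0.06). The part of cell make-up in the ratios of the 7 genes was not tested. Which mouse held more of these messages was not settled by the scalings tried, and in bulk tissue fewer cells of a type and less RNA per cell cannot be told apart.

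**Figure D4:**
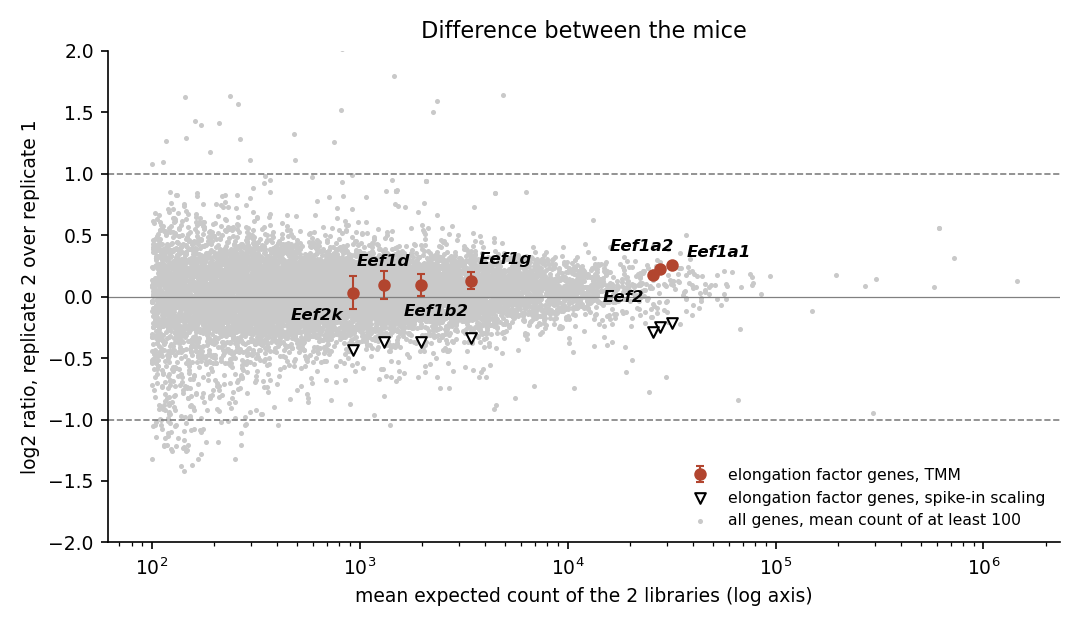
Log2 ratio of replicate 2 over replicate 1 against the mean expected count (log axis). Grey points are the 12615 genes whose mean count was 100 or more (17 lie outside the axis), filled points the 7 elongation factor genes by TMM with 95% counting intervals, open triangles the same genes scaled by spike-ins, and dashed lines 2-fold. By TMM the 7 genes lie from 0.03 to 0.25, and by spike-ins the direction turns, from -0.43 to -0.21.

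The enzymes that modify eEF1A and eEF2 were much lower than their substrates. Of 13 listed genes 11 exceeded 1 TPM in both mice, with a list median of 5.73 TPM in replicate 2 and 6.55 TPM in replicate 1. The highest was Dph3, which works in the synthesis of diphthamide, the modified histidine of eEF2, at 17.3 and 23.3 TPM. The eEF1A lysine methyltransferase gene Eef1akmt1 had 15.4 and 16.0 TPM. Below 1 TPM were 2 other methyltransferase genes, Eef1akmt3, at 0.02 and 0.12 TPM on 1 and 6 counts, and Eef1akmt4, at 0.56 and 0.47 TPM on 16 and 9 counts.

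Genes that act on eEF2 kinase or on phosphorylated eEF2 were all expressed. The calmodulin genes Calm2 and Calm3 stood near Eef1a1 in TPM. Calm2 had 922 and 1051 TPM and Calm3 823 and 841 TPM, in replicates 2 and 1. Ppp2cb and Ppp2ca, the catalytic subunit genes of the phosphatase that reverses the eEF2 mark, had 67.4 ± 5.18 TPM and 51.2 ± 3.44 TPM. Mtor, whose kinase restrains eEF2 kinase through S6 kinase, had 39.8 ± 3.66 TPM. The AMP-activated kinase genes Prkaa1 and Prkaa2, which activate it, had 7.95 ± 0.403 TPM and 14.5 ± 1.34 TPM, against 13.2 ± 2.75 TPM for Eef2k. The S6 kinase gene Rps6kb2 had the lowest log2 ratio of these 13 genes, at -0.55 by TMM, and none of the 13 was 2-fold apart.

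Among other elongation genes, Eif5a, encoding the factor that relieves stalled ribosomes and carries the amino acid hypusine, had 184 TPM in replicate 2 and 180 TPM in replicate 1. That is above the eEF1B subunit genes and below Eef2. In the read-based table the order against Eef1b2 turned: Eif5a had 288 and 257 TPM in replicates 2 and 1, below Eef1b2 at 326 and 289 TPM. The hypusine enzyme genes Dohh and Dhps had 39.6 ± 3.42 TPM and 27.0 ± 1.27 TPM. Eef1e1, a component of the aminoacyl-tRNA synthetase complex, had 11.5 TPM in replicate 2 and 12.6 TPM in replicate 1, and Eefsec, the selenocysteine elongation factor, 9.02 and 9.21 TPM. Gtpbp2, encoding a GTPase of ribosome rescue, had 36.3 and 53.9 TPM in replicates 2 and 1, with a log2 count ratio of -0.16 by TMM. The mitochondrial counterpart of eEF1A, Tufm, had 34.6 ± 4.67 TPM, and the termination factor gene Gspt1 35.7 ± 4.41 TPM.

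The 7 elongation factor genes had a median level of 133 TPM in replicate 2 and 149 TPM in replicate 1. The 30 listed initiation factor genes had a median of 61.2 and 61.4 TPM, and the 80 cytoplasmic ribosomal protein genes one of 166 and 161 TPM. The sums were 2237 and 2292 TPM for the 7 elongation factor genes, 2455 and 2680 TPM for the initiation factors, and 14337 and 14266 TPM for the ribosomal protein genes. Of the 77 ribosomal protein genes with enough counts, 75 were higher in replicate 2 by TMM, with a median log2 ratio of 0.27, and 1 was higher by spike-ins. Over all 12615 genes 58.9% were higher by TMM and 2.31% by spike-ins. No test of the lists was made.

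**Figure D5:**
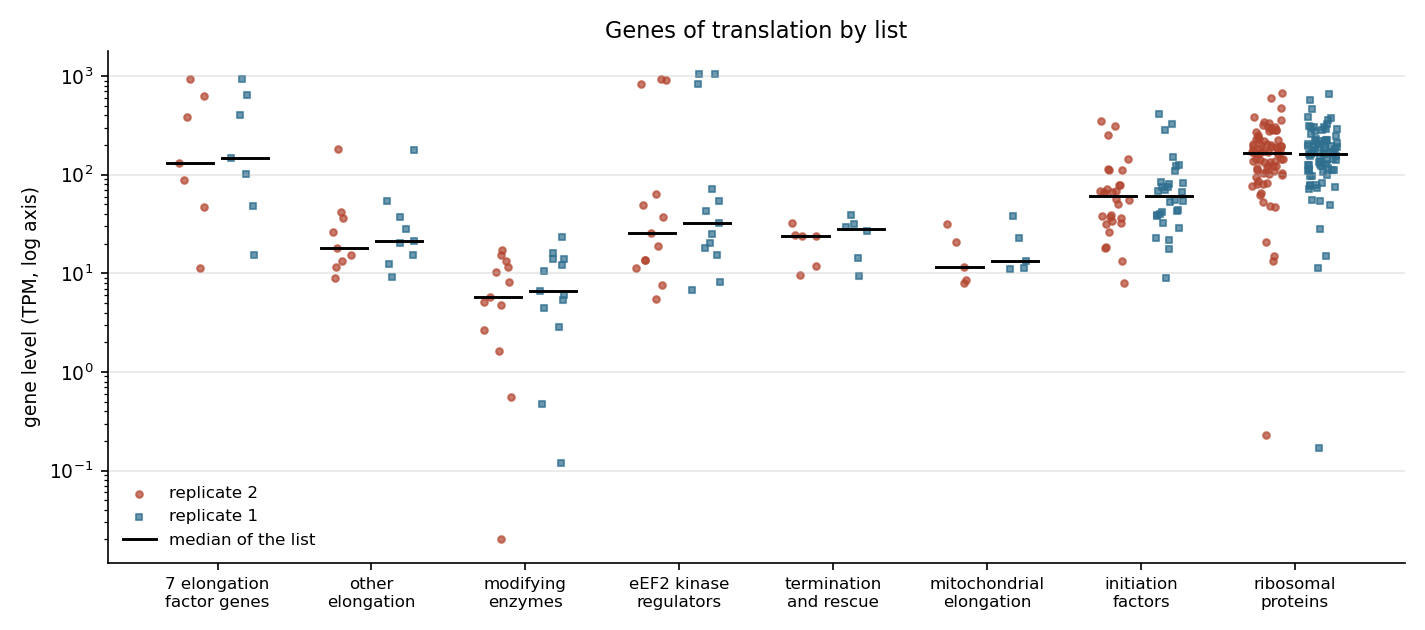
Gene level in TPM (log axis) for the 7 elongation factor genes and 7 other lists of translation genes, with circles for replicate 2, squares for replicate 1 and black lines for the list medians. Genes listed at 0 are not drawn. The 7 genes span from 11.3 to 941 TPM, with medians of 133 and 149 TPM, and the modifying enzymes have medians of 5.73 and 6.55 TPM.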

How the data were processed

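The authors' deposited gene and transcript tables hold expected counts, TPM, FPKM and, per transcript, its percent of the gene; per the deposited notes they derive from transcriptome alignments on build mm10 with GENCODE M21, and another deposited transcript table with estimated counts and TPM was made directly from the reads. For the aligner, quantifiers and strand setting, names and versions were not given in the sources used here. Each library was used alone: 35188766 expected counts in replicate 2 and 29417186 in replicate 1, rounded to whole numbers per gene.

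Levels are the deposited TPM with the SD over 2 mice. Ratios between the mice used edgeR 4.0.16 (TMM, prior count of 2) in R 4.3.3, with exact Clopper-Pearson intervals for counting error, over genes whose mean count was 100 or more. DESeq2 1.42.0 size factors, library totals and spike-ins were alternatives. The TMM ratio step was tested on simulated counts with known folds. Read-based gene values are sums over transcripts. Rows named only by number or of spike-ins were left out of gene lists. Windows of 100 bases were compared with all GENCODE M21 transcripts in Python 3.11.15. Named genes are the 7 genes, their transcripts with at least 5% of TPM in both mice, their neighbours in level among nuclear protein-coding genes, other Eef genes and the listed genes. A few further transcripts and copies were named after their values were seen. Members and lists were chosen with earlier results of these data known. Some listed genes are counted but not reported here by name.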

Additional observations from a re-analysis of the deposited data

How the results depend on the processing

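With either mouse left out, the summed TPM of the 7 genes lay between 2237 and 2292, the ratio of Eef1a1 to Eef1a2 between 1.46 and 1.49, and 5 genes had a leading transcript of at least 50%. The summed TPM was 3817 in the read-based table and 5117 when TPM was rescaled over nuclear protein-coding genes. The ratio of Eef1a1 to Eef1a2 was 1.74 in the read-based table and 1.14 by expected counts. Under alternatives chosen after seeing the data it was 1.52 with all window-sharing pseudogenes, 1.25 for the leading transcripts, 0.988 for the leading transcripts in the read-based table and 1.00 by read-based estimated counts. The median log2 ratio of the members was -0.34 with spike-ins and 0.20 in the read-based table, and the number of genes 2-fold apart was 306 with spike-ins, 734 with a mean count of at least 10 and 2422 with no filter. The cause of these shifts was not tested. DESeq2 size factors and a prior count of 0.5 left the median, the 7 single ratios and both counts of genes 2-fold apart within their intervals or within 1.5 times. No member was 2-fold apart under the main scaling or any of the 5 alternatives. No paired analysis was possible because the series holds 1 group. With 1 library per mouse, depth sets only the counting error, which is widest for Eef2k.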

Other observations

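The authors' gene table gives each TPM value an interval whose level is not stated. For Eef1a1, Eef1a2 and Eef2 the deposited TPM lay above the upper bound of its own interval in both mice: for Eef1a2 it was 630 TPM with a bound of 620 TPM in replicate 2, and 639 TPM with a bound of 625 TPM in replicate 1. This was so for 3 of the 7 genes and for 316 of 12754 expressed nuclear protein-coding genes (2.48%). These intervals were not used here.

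The mitochondrial elongation genes were all expressed, from 9.51 ± 2.16 TPM for Guf1, the mitochondrial counterpart of a bacterial back-translocase, through 12.5 ± 1.10 TPM for Tsfm, the exchange factor of Tufm, to 34.6 ± 4.67 TPM for Tufm. The termination and rescue genes spanned from 9.49 ± 0.205 TPM for Pelo, which recognises stalled ribosomes, to 35.7 ± 4.41 TPM for Gspt1, the GTPase of termination, with Etf1, which reads stop codons, at 25.4 ± 2.09 TPM. None of these 11 genes was 2-fold apart between the mice.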
